A study of Mus musculus with 8 samples.

Results

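The acrosome is the enzyme-filled vesicle that caps the sperm nucleus, and 10 genes that act in its assembly or in the vesicle traffic behind it were followed here in mouse testes that lack MIWI. They were taken by name: Dpy19l2, Fam209, Spata16, Gopc, Pick1, Agfg1, Smap2, Sppl2c, Gba2 and Eqtn. Each gene was represented by its transcript with the highest mean fragment count over all libraries. All 10 of these genes had a row among the 21949 genes of the deposited tables, and all 10 were among the 16051 genes that passed the filter on low counts. The label acrosome biogenesis describes known roles and covers genes of unlike breadth: Dpy19l2, Fam209, Spata16, Sppl2c and Eqtn are chiefly germ cell genes, whereas Gopc, Pick1, Agfg1, Smap2 and Gba2 are used in many tissues.

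The samples were testes of C57BL/6 mice at postnatal day 24, either wild type (WT) or Miwi-null. Miwi is the common name of Piwil1, which encodes a PIWI protein of meiotic and postmeiotic germ cells, and no further description of the allele is given in the sources used here. Cleared lysates gave total RNA libraries and ribosome footprint libraries (RPF, the stretches of mRNA that ribosomes shield from nuclease), with 2 libraries for each genotype and assay, 8 in all. The labels name no animals, so p-values measure the spread between libraries, part of which may be technical. In the main test each gene had a shared estimate of spread for both assays. Its RNA standard errors and p-values therefore also carry the spread between footprint libraries, and its footprint ones that between RNA libraries.

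As background, the acrosome forms in round spermatids when proacrosomal vesicles leave the Golgi, fuse into 1 large vesicle and spread over the nucleus. The vesicle is held to the nucleus through the nuclear envelope and a cytoskeletal plate, and mice or men that lack single proteins of this route make round-headed sperm without an acrosome. At postnatal day 24 the leading germ cells of a mouse testis are round spermatids and later stages are just appearing, so these genes are measured in a tissue where acrosomes are being built.

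RNA libraries held 11130955 to 15592800 fragments and footprint libraries 11662660 to 28334620, the deepest footprint library of each genotype being replicate 1 of WT and replicate 2 of null. Piwil1 itself had 8215 and 7165 fragments in WT RNA against 46 and 26 in null RNA, and 14206 and 6868 WT footprints against 37 and 94 null ones, which fits the genotype labels. All marker lists of testis cell types were present. The summed level of 12 elongating spermatid markers fell from 19357 to 19629 CPM (fragments scaled to a common library size) in WT RNA to 4080 to 4117 CPM in null RNA, and 11 of the 12 were lower in RNA (edgeR, adjusted p under 0.05). Among 10 round spermatid markers 4 were lower and 1 higher in RNA, with summed levels of 2205 to 2352 CPM in WT and 1304 to 1312 CPM in null, and among 10 pachytene markers 3 were lower and 4 higher. Among 8 Leydig cell markers 4 were higher and 1 lower in RNA, and they summed to 1226 to 1240 CPM in WT RNA and 2321 to 2332 CPM in null RNA. In footprints 5 of these 8 were higher and 0 lower, with sums of 2487 to 2590 CPM in WT and 8080 to 9012 CPM in null. Of 10 Sertoli cell markers 7 were lower and 0 higher in RNA, and of 6 peritubular myoid markers 5 were lower and 0 higher. Of 6 macrophage markers 1 was lower and 2 were higher in RNA. In footprints 2 of the 10 Sertoli markers were lower and 0 higher. Their footprint sums were 4287 to 4589 CPM in WT and 4478 to 4542 CPM in null. Of the 6 myoid markers 2 were lower in footprints and 0 higher, and of the 6 macrophage markers 1 was lower and 1 higher. No marker of these 7 lists was at 0 in a group. Over all genes tested 37.3% changed in RNA (20.8% lower and 16.5% higher) and 25.4% in footprints (13.3% lower and 12.0% higher). The RNA counts of the short round spermatid and macrophage lists are not far from that RNA share.

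The genes lie apart on 8 chromosomes (GRCm38.p6). Eqtn (94875697 to 94929953), Smap2 (120968317 to 121017289) and Gba2 (43566928 to 43578886) are on chromosome 4. Sppl2c is on chromosome 11 (104186327 to 104191166), Fam209 on chromosome 2 (172472554 to 172474316), Dpy19l2 on chromosome 9 (24557047 to 24696457) and Spata16 on chromosome 3 (26637620 to 26983249). Gopc is on chromosome 10 (52337024 to 52382124), Pick1 on chromosome 15 (79229140 to 79249466) and Agfg1 on chromosome 1 (82839017 to 82901001). The span of Gba2 overlaps the ends of its neighbours Creb3 and Rgp1, and the small gene Cypt4 lies within the span of Dpy19l2. The pseudogene Gm6627 lies within the span of Gopc, the long noncoding RNA gene Gm32458 within Spata16 and the microRNA gene Mir7015 within Smap2. Use of strand in counting is not given in the sources used here, so reads where such neighbours overlap could not be told apart.

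RefSeq promoter windows matched 8 of the 10 genes by symbol, Smap2 and Eqtn being the exceptions, and gave 9 windows because Pick1 has a pair of start sites. The first 250 bases of a window are shown for the 4 genes whose RNA changed and for the Pick1 window with the full X-box. Each is written 5′ to 3′ on the gene's own strand. The windows shown for Dpy19l2, Spata16 and Pick1 reach into the gene spans given above, so not all their bases lie before those spans. Capitals mark matches to 2 elements known from spermatid genes, the cAMP response element bound by CREM (TGACGTCA, or its core TGACG) and the X-box bound by RFX factors (GTTGCC followed after 2 bases by its reverse complement, or GTTGCC alone), each searched on both strands. The short forms also match inside the full ones, and the elements were chosen with the sequences in view.
Sppl2c: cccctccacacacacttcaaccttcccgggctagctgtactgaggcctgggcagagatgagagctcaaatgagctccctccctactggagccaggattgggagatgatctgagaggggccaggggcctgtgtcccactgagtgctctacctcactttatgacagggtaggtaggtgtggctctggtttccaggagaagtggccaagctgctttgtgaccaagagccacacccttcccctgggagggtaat
Fam209: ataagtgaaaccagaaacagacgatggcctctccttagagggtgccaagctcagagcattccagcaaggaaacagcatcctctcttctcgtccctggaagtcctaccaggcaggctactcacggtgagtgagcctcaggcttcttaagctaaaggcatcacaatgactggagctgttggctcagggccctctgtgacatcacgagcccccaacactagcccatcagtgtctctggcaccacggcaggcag
Dpy19l2: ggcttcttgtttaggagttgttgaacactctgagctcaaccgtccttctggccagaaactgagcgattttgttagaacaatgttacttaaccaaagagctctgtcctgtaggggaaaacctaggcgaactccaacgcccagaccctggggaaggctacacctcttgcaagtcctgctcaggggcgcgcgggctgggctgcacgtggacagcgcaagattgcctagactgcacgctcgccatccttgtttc
Spata16: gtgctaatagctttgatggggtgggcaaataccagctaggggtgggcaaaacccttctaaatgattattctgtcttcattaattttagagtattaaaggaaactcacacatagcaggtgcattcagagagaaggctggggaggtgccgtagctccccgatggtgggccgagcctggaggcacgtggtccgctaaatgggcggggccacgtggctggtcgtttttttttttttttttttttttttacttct
Pick1: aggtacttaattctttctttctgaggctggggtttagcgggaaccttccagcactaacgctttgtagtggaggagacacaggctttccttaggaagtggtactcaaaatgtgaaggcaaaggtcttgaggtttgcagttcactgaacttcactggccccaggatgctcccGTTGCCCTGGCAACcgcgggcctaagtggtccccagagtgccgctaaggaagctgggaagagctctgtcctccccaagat
These windows lie at chr11:104186077-104186326 (Sppl2c, plus strand), chr2:172472304-172472553 (Fam209, plus), chr9:24696294-24696543 (Dpy19l2, minus), chr3:26637381-26637630 (Spata16, plus) and chr15:79228923-79229172 (Pick1, plus). The windows of Sppl2c, Fam209, Dpy19l2 and Spata16 held none of these letters, which says nothing about the factors. The full X-box stood in 1 of the 9 windows, that of Pick1, against 0.0791% of 32851 windows of all genes, and GTTGCC alone in 2 of 9, both of Pick1, against 10.4%. The full cAMP response element was in 0 of 9 windows against 1.55%, and its core in 1 of 9, that of Gopc, against 17.8%.

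The levels of the 10 genes in WT testes differed widely between RNA and footprints. On the authors' FPKM scale, which divides by coding length and library size, mean WT RNA levels ranged from 14.2 ± 0.085 (SD, n = 2) for Gopc to 223 ± 14.1 for Sppl2c. Spata16 (156 ± 3.84) and Fam209 (150 ± 10.3) came next below Sppl2c and overlapped each other. Agfg1 stood at 80.9 ± 3.22, Dpy19l2 at 57.2 ± 1.19 and Gba2 at 50.7 ± 0.78, and Pick1 (40.1 ± 0.48), Smap2 (35.3 ± 1.76) and Eqtn (27.4 ± 1.18) were the lowest above Gopc. In WT footprints the order was another one: Fam209 led with 227 ± 28 FPKM, followed by Spata16 at 153 ± 2.6 and Eqtn at 120 ± 42.5, while Sppl2c stood at 50.6 ± 0.586 and Gba2 was last at 13.6 ± 0.505. Dpy19l2, Pick1, Gopc, Agfg1 and Smap2 had means between 57.6 and 82.5 FPKM, and most of their ranges overlapped one another. The exceptions were Dpy19l2, with both values above both of Gopc and both of Smap2, and Pick1, with both above both of Smap2.

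**Figure D1:**
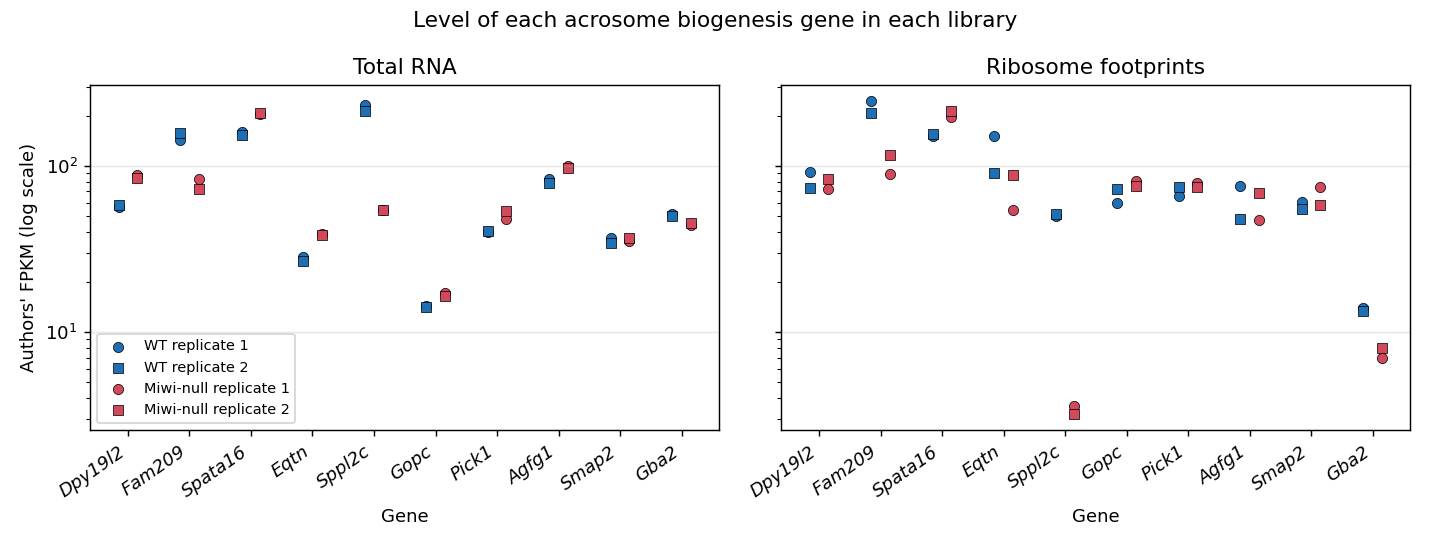
The authors' FPKM of each gene (log axis) in each of the 4 RNA libraries (left) and 4 footprint libraries (right), WT in blue and Miwi-null in red, circles for replicate 1 and squares for replicate 2. Sppl2c footprints drop from about 50.6 to 3.37 FPKM, and Fam209 footprints from 227 to 102 FPKM.

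The ratio of footprint FPKM to RNA FPKM, the authors' translational efficiency (TE), placed Gopc and Eqtn at the high end in WT and Sppl2c and Gba2 at the low end. Gopc had ratios of 4.19 and 5.16 in the WT replicates and lay above 90.0% of the genes tested. Eqtn had 5.32 and 3.40 and lay above 88.9%. Sppl2c had 0.215 and 0.240, above only 6.63% of genes, and Gba2 had 0.273 and 0.265, above 8.32%. The median over all genes tested was 1.26 in WT and 1.18 in null.

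The genotype comparison asked what the loss of MIWI did to the RNA, the footprints and the TE of these genes. Log2 changes below are null minus WT from edgeR's quasi-likelihood test over all 8 libraries, given with their standard error (SE), and a gene is said to change where its p, adjusted by the Benjamini-Hochberg method across the 16051 genes, is under 0.05. In RNA, 2 of the 10 genes fell (Sppl2c and Fam209) and 2 rose (Dpy19l2 and Spata16), so 4 of 10 changed, beside 37.3% of all genes tested (20.8% fell and 16.5% rose). In footprints 3 fell (Sppl2c, Fam209 and Gba2) and 1 rose (Spata16), so 4 of 10 changed, beside 25.4% of all genes (13.3% fell and 12.0% rose). In TE 3 fell (Sppl2c, Dpy19l2 and Gba2) and 0 rose, beside 14.9% of all genes (7.56% fell and 7.35% rose). The median change of the 10 genes was 0.19 in RNA, -0.05 in footprints and -0.18 in TE, and over all genes tested it was -0.07, -0.00459 and 0.04. In RNA the count is near the background. All 4 RNA changes were in the germ cell genes, and of the 5 genes of broad use Gba2 alone changed, in footprints and TE. The difference between these groups was not tested. Because the main test shares its estimate of spread between assays, missing the RNA threshold does not show that the RNA libraries varied. Over 10170 genes the median log2 gap between replicates was 0.10 in WT RNA and 0.06 in null RNA. In footprints it was 0.21 in WT and 0.18 in null. With the RNA libraries fitted alone, Gopc (adjusted p = 0.029), Pick1 (0.000517), Agfg1 (0.000163), Eqtn (1.51e-05) and Gba2 (0.00722) passed in RNA as well. That fit called 9080 of the 16051 genes in RNA, against 5984 in the main test.

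**Figure D2:**
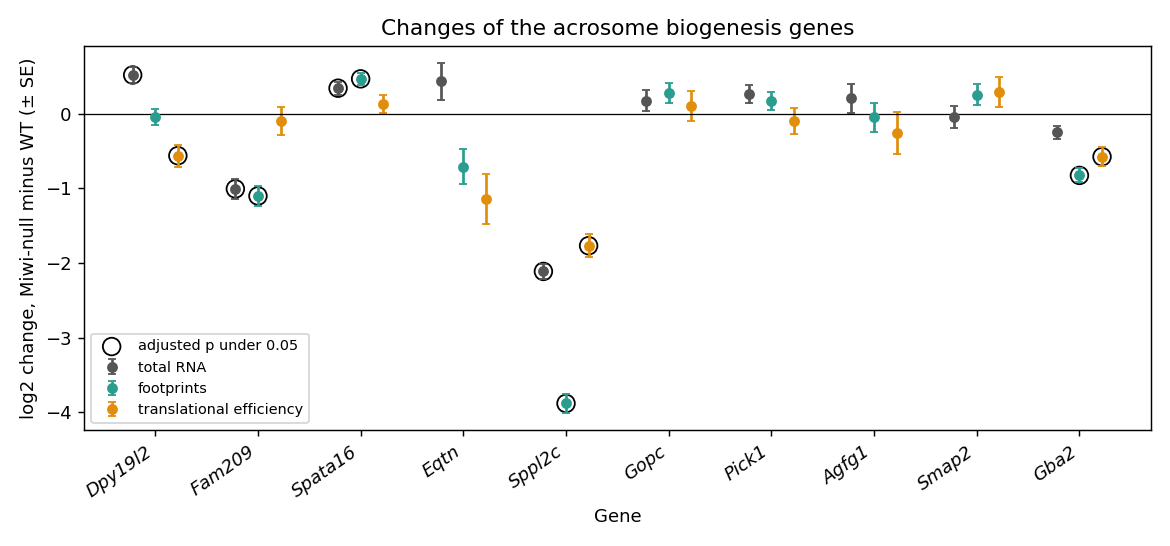
Log2 change, Miwi-null minus WT, of each gene in total RNA (grey), footprints (green) and TE (orange), with bars of 1 SE and rings around changes with an edgeR adjusted p under 0.05. Sppl2c has the lowest estimate in each measure (-2.11, -3.88 and -1.77), Fam209 falls alike in RNA and footprints, and Dpy19l2 has a higher RNA (0.52) with footprints at -0.04.

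Sppl2c changed most. It encodes an intramembrane aspartyl protease of the signal peptide peptidase family that is found in spermatids and acts in the secretory pathway there. Its RNA had 608 and 558 CPM in the WT libraries and 135 and 135 CPM in the null ones. Its footprints went from 102 and 110 CPM in WT to 7.95 and 6.69 CPM in null, from 89 and 193 fragments in the null libraries. The groups were far apart in both assays, and both null libraries were low. Sppl2c RNA fell by 2.11 ± 0.11 on the log2 scale (4.32-fold, edgeR adjusted p = 4.85e-06) and its footprints fell by 3.88 ± 0.12 (14.7-fold, adjusted p = 2.43e-07). Its TE fell by 1.77 ± 0.15 (3.41-fold, adjusted p = 0.00043), with ratios of 0.215 and 0.240 in WT and 0.0659 and 0.059 in null. In null, Sppl2c lay above 2.31% of genes in TE. Among all 16051 genes, its footprint change ranked 113 from the lowest. All 3 calls held in each alternative run. Of the 12 elongating spermatid markers 11 were lower in footprints too and 1 was higher. Their sums were 8444 to 8618 CPM in WT and 1363 to 1512 CPM in null. Of the 10 round spermatid markers 6 were lower in footprints and 1 was higher. Their sums were 1441 to 1882 CPM in WT and 1116.5 to 1270 CPM in null. Over all genes tested 13.3% fell and 12.0% rose in footprints. In whole testis, fewer cells of a type and less RNA per cell cannot be told apart, and the part of cell composition in these changes was not tested.

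Of all genes with a mean of at least 10 CPM (10170 genes), those whose RNA and footprint changes lay nearest to those of Sppl2c were Cst13 (RNA -2.10, footprints -4.04), Rnf133 (-1.85 and -3.91) and Gm498 (-2.42 and -3.83). Likeness here is the distance over these 2 log2 changes, which rest on the same 8 libraries. The related peptidase gene Sppl2a was tested too. Sppl2a footprints fell by 0.61 ± 0.14 (adjusted p = 0.0121) with an RNA change of 0.00964 ± 0.15, a call that ended without null RPF replicate 2 (adjusted p = 0.0875). Sppl2b (RNA 0.15 ± 0.14, footprints 0.07 ± 0.15) and Sppl3 (0.34 ± 0.18 and -0.29 ± 0.19) did not pass in either assay.

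**Figure D3:**
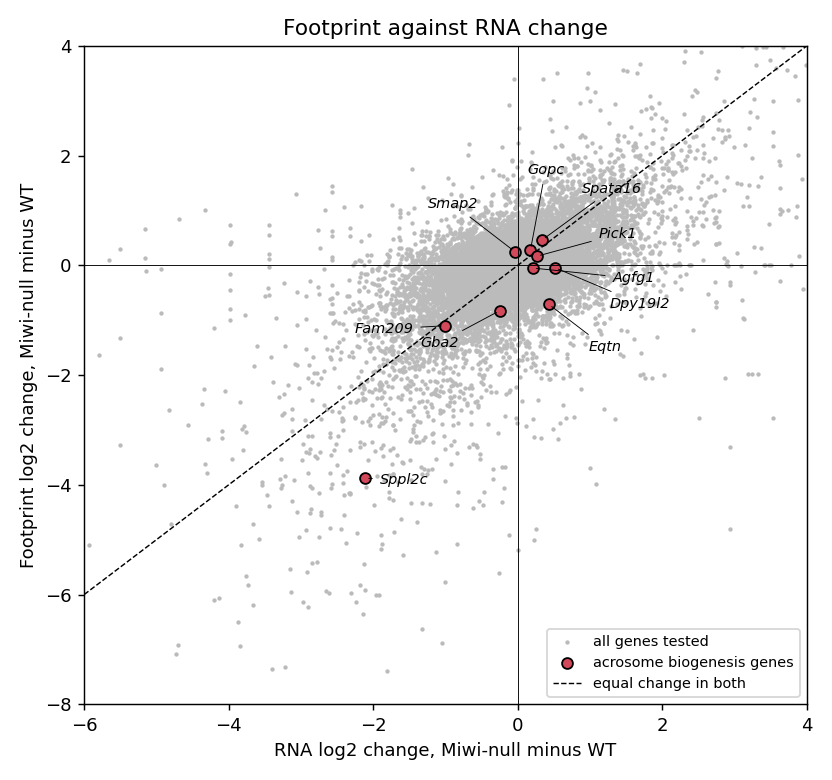
Footprint log2 change against RNA log2 change, Miwi-null minus WT, for all genes tested within the axes (grey) and the 10 acrosome biogenesis genes (red), with a dashed line where both are equal. Sppl2c (-2.11 in RNA, -3.88 in footprints) lies well below the line, Eqtn, Dpy19l2 and Gba2 lie below it by less, and Fam209 lies on it.

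The anchoring genes Dpy19l2 and Fam209 moved apart in RNA. Dpy19l2 encodes a multipass protein of the inner nuclear membrane that holds the acrosome to the nucleus of the spermatid, and its loss is the most common known cause of round-headed human sperm. Fam209 is a small membrane protein that associates with DPY19L2 there. Dpy19l2 RNA stood at 165 and 171 CPM in WT and at 245 and 235 CPM in null, so that both null libraries were higher. Its RNA rose by 0.52 ± 0.11 (1.43-fold, adjusted p = 0.00559). Its footprints overlapped between genotypes, at 210 and 177 CPM in WT and 180 and 195 CPM in null, with a change of -0.04 ± 0.11 (95% interval -0.28 to 0.20). TE fell by 0.56 ± 0.15 (adjusted p = 0.0385), from ratios of 1.63 and 1.26 to 0.822 and 0.987. The TE call ended without any single RNA library (adjusted p = 0.112 to 0.17) and without null RPF replicate 1 (0.0918), and the RNA call without WT RNA replicate 1 (0.0571) or null RNA replicate 1 (0.0585).

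Fam209 fell in RNA and footprints by much the same amount. Its RNA had 91.6 and 102 CPM in WT and 51.5 and 44.5 CPM in null, and its footprints 124 and 110 CPM in WT and 49.0 and 59.9 CPM in null. Both null libraries were below both WT libraries in each assay. The RNA fell by 1.01 ± 0.14 (2.01-fold, adjusted p = 0.000695) and the footprints fell by 1.10 ± 0.13 (2.15-fold, adjusted p = 0.000483). Its TE change of -0.09 ± 0.19 did not pass (adjusted p = 0.788, 95% interval -0.53 to 0.34), and the WT ratios of 1.73 and 1.32 overlapped the null ratios of 1.07 and 1.60. Both falls held in each alternative run. The lower elongating and round spermatid markers given above are from the same libraries, in which Dpy19l2 and Spata16 RNA rose. The part of cell composition in the Fam209 falls was not tested.

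Of the paralogs of Dpy19l2, which encode C-mannosyltransferases or proteins like them, Dpy19l1 likewise had higher RNA and lower TE. Its RNA rose by 0.87 ± 0.10 (adjusted p = 0.000288), its footprints changed by -0.05 ± 0.10, and its TE fell by 0.92 ± 0.14 (adjusted p = 0.00472). Dpy19l3 (TE -0.27 ± 0.25) and Dpy19l4 (TE -0.61 ± 0.23, adjusted p = 0.112) did not pass in any of the 3 comparisons. The genes nearest to Dpy19l2 in RNA and footprint change were Haus3 (0.52 and -0.04), Ttc37 (0.52 and -0.03) and Zranb1 (0.52 and -0.06).

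Spata16, Gopc and Pick1 form a group of Golgi-associated proteins. GOPC and PICK1 carry PDZ domains and bind each other, one at the trans-Golgi and one on vesicles on their way to the acrosome, and SPATA16 is a Golgi and acrosomal vesicle protein found together with them. Spata16 was the 1 gene that rose in both assays. Its RNA went from 343 and 333 CPM to 424 and 432 CPM, a rise of 0.34 ± 0.08 (1.27-fold, adjusted p = 0.0136). Its footprints went from 255.5 and 277.5 CPM to 364 and 372 CPM, a rise of 0.47 ± 0.08 (1.38-fold, adjusted p = 0.00434). The groups did not overlap in either assay, and the TE change did not pass (0.13 ± 0.12, 95% interval -0.15 to 0.40), with ratios from 0.954 to 1.02 in all 4 pairs of libraries. Leaving out any single RNA library ended the RNA call (adjusted p = 0.0709 to 0.115) with changes of 0.31 to 0.36, and fitting the footprint libraries alone ended the footprint call (0.0908).

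Gopc and Pick1 did not pass in any comparison. Gopc RNA was at 24.5 and 24.4 CPM in WT and 28.2 and 27.1 CPM in null, a change of 0.18 ± 0.15 (95% interval -0.16 to 0.51). Its footprints were at 80.1 and 104 CPM in WT and 120 and 104 CPM in null, a change of 0.28 ± 0.14 (-0.03 to 0.59). Gopc was thus the gene with the least RNA of the 10 and a TE ratio of 4.19 to 5.16 in all 4 pairs. Pick1 RNA was at 62.6 and 64 CPM in WT and 72.1 and 80.3 CPM in null, a change of 0.27 ± 0.12 (-0.01 to 0.55), and its footprints changed by 0.17 ± 0.12 (-0.11 to 0.44). RNA of both genes was a little higher in both null libraries than in both WT ones. When the 4 RNA libraries were fitted alone, both passed (Gopc 0.24, adjusted p = 0.029, and Pick1 0.33, adjusted p = 0.000517). Single footprint libraries also moved a call: without WT RPF replicate 2, Gopc footprints passed (0.48, adjusted p = 0.0136), and without WT RPF replicate 1, Pick1 RNA passed (0.33, adjusted p = 0.0209).

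Agfg1 and Smap2 encode proteins of the coat and fusion steps. AGFG1, once named HRB, sits on the outer face of proacrosomal vesicles and is needed for them to fuse. SMAP2 is a GTPase-activating protein for Arf GTPases at the trans-Golgi network and binds clathrin. Agfg1 RNA was at 177 and 168 CPM in WT and 202 and 195 CPM in null, a change of 0.21 ± 0.19 (adjusted p = 0.435), although the null libraries were both above the WT ones, and with the RNA libraries fitted alone it passed (0.28, adjusted p = 0.000163). Its footprints were at 125 and 84.2 CPM in WT and 85 and 117 CPM in null, so the genotypes covered the same range and the change was -0.05 ± 0.20 (95% interval -0.49 to 0.40). Its TE change of -0.26 ± 0.28 did not pass. Smap2 RNA was at 59.1 and 55.4 CPM in WT and 54.8 and 56.5 CPM in null, a change of -0.04 ± 0.14. Its footprints were at 76.3 and 73.7 CPM in WT and 103 and 76 CPM in null, a change of 0.25 ± 0.14 (-0.07 to 0.57) that passed without null RPF replicate 2 (0.48, adjusted p = 0.025).

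Their paralogs Smap1 and Agfg2 were also tested. Smap1 footprints fell by 1.34 ± 0.26 (adjusted p = 0.00655) with an RNA change of -0.33 ± 0.26 and a TE change of -1.01 ± 0.36 that did not pass (adjusted p = 0.101). Agfg2 RNA fell by 0.53 ± 0.15 (adjusted p = 0.025) while its TE rose by 0.75 ± 0.21 (adjusted p = 0.0475). The RNA call of Agfg2 ended without WT RNA replicate 1 or 2 or null RNA replicate 2 (adjusted p = 0.0855 to 0.184), and its TE call without any library but WT RPF replicate 1 (0.0513 to 0.181). Of 10 paralogs listed for these genes 9 were tested, and 1 rose and 1 fell in RNA, 2 fell in footprints, and 1 rose and 1 fell in TE. Over all genes tested 37.3% changed in RNA, 25.4% in footprints and 14.9% in TE. The paralog count was below the share in RNA and near it in footprints and TE.

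Gba2 footprints and TE fell. GBA2 is a glucosylceramidase outside the lysosome, and mice without it accumulate glucosylceramide in the testis and make round-headed sperm. Gba2 RNA was at 178 and 175 CPM in WT and 147 and 150 CPM in null, a change of -0.25 ± 0.09 that missed the threshold (adjusted p = 0.0535). Its footprints were at 38 and 38.2 CPM in WT and 20.6 and 22.2 CPM in null, well apart, and fell by 0.83 ± 0.09 (1.77-fold, adjusted p = 0.000311). TE fell by 0.58 ± 0.13 (1.49-fold, adjusted p = 0.0208), from ratios of 0.273 and 0.265 to 0.157 and 0.177. The TE call ended without any single RNA library (adjusted p = 0.0816 to 0.117) and without null RPF replicate 1 (0.0573). RNA passed with the RNA libraries fitted alone (-0.18, adjusted p = 0.00722) and without WT RPF replicate 2 (-0.25, adjusted p = 0.0345). Nearest to Gba2 in both changes were Zfp451 (-0.26 and -0.83), Gm128 (-0.26 and -0.85) and Tmem33 (-0.23 and -0.80).

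EQTN is a membrane protein of the acrosome that takes part in its exocytosis. Eqtn RNA was at 36.1 and 34.1 CPM in WT and 47.7 and 46.9 CPM in null, a change of 0.43 ± 0.24 (adjusted p = 0.198), with both null libraries higher. Footprints were at 150 and 95.4 CPM in WT and 59.5 and 89.9 CPM in null, all lower in null but with a wide spread, and the change of -0.71 ± 0.23 missed the threshold (adjusted p = 0.0564). The TE change of -1.14 ± 0.34 (95% interval -1.91 to -0.37) missed it as well (adjusted p = 0.055), with ratios of 5.32 and 3.40 in WT and 1.40 and 2.28 in null. Its RNA passed with the RNA libraries fitted alone (0.50, adjusted p = 1.51e-05) and without WT RPF replicate 1 (0.50, adjusted p = 0.0469). Its footprints passed without WT RPF replicate 2 (-0.99, adjusted p = 0.00328) and without null RPF replicate 2 (-1.03, adjusted p = 0.0224). With DESeq2 the footprints passed too (-0.69, adjusted p = 0.019). Over the 20 alternative runs in TE, Eqtn passed in 8 and missed in 12. Those it passed included DESeq2 (-1.16, adjusted p = 0.00661) and limma-voom with weights per assay (-1.12, adjusted p = 0.0234). It also passed without WT RPF replicate 2 (-1.42, adjusted p = 0.00417) and without null RPF replicate 2 (-1.53, adjusted p = 0.0228).

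The footprint replicates of several of these genes differed in the same direction as library depth in both genotypes. Over 10170 genes, the gap between replicates 1 and 2 in WT footprints correlated with that in null footprints at r = -0.81 (across genes, which are not independent), while the 5 other pairs of groups gave r from -0.11 to 0.07. The deep libraries are replicate 1 in WT and replicate 2 in null. Eqtn was 0.65 higher on the log2 scale in the deeper WT footprint library and 0.60 higher in the deeper null one, and Agfg1 0.57 and 0.46 higher. The median gap of all these genes was 0.21 in WT and 0.18 in null, and 0.10 and 0.06 in RNA. Gopc and Pick1 went the other way, lower in the deeper WT library by 0.37 and 0.27 and in the deeper null one by 0.20 and 0.17.

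The genotype change was also read between single libraries, matched either by depth or by replicate number. Eqtn footprints differed by -0.74 between the deeper pair and by -0.68 between the shallower pair, against -1.33 and -0.09 between libraries of the same replicate number. Agfg1 differed by -0.10 and 0.01 within depth, against -0.55 and 0.47 by number. Gopc differed by 0.38 and 0.20 within depth, and Sppl2c by -3.93 and -3.79. The gap between the deeper and the shallower pair was widest for Smap2, with -0.00491 in the deeper and 0.49 in the shallower pair. The part of depth, or of any other property shared by the libraries of like depth, in these spreads was not tested. Whether the replicate numbers of 1 genotype are crossed in the deposited footprint columns was not tested either. The TE ratios per replicate and the differences by number rest on the numbers as deposited, whereas the edgeR changes do not use them.

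**Figure D4:**
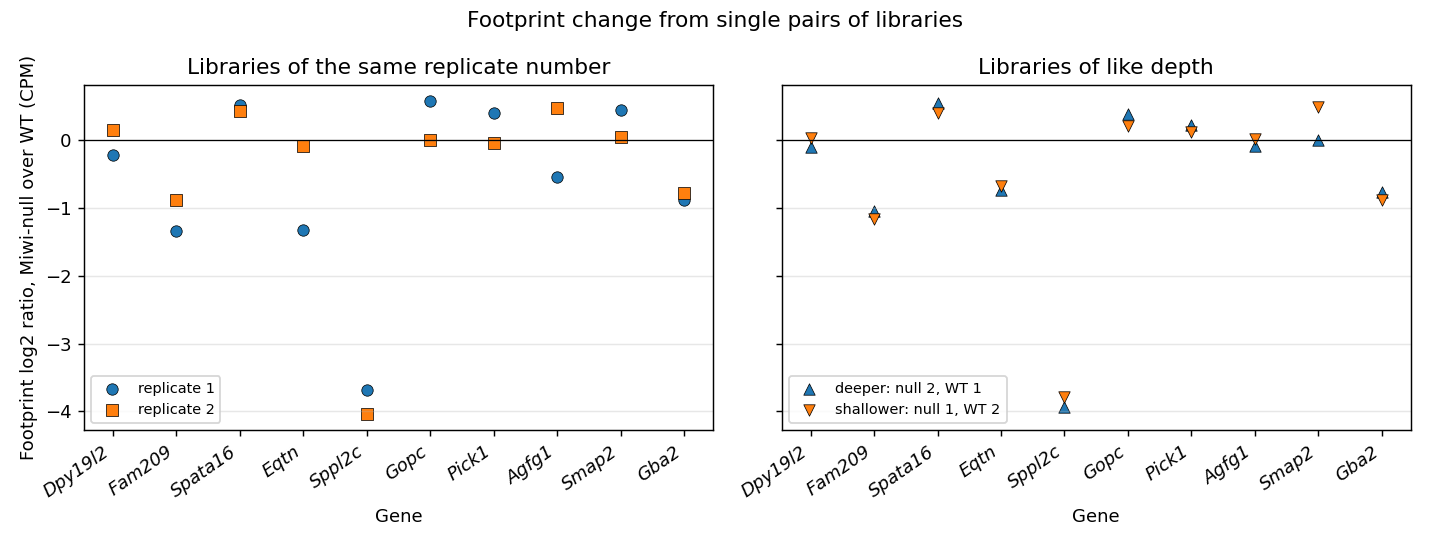
Footprint log2 ratio, Miwi-null over WT in CPM, from single pairs of libraries, matched by replicate number (left) and by depth (right). Eqtn spans -1.33 to -0.09 by number and -0.74 to -0.68 by depth, and Agfg1 spans -0.55 to 0.47 by number and -0.10 to 0.01 by depth.

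In the authors' deposited table, which pools replicates, the log2 TE change was -1.96 for Sppl2c, -1.24 for Eqtn, -0.67 for Dpy19l2, -0.49 for Gba2 and -0.31 for Agfg1, all marked Down there. The authors' deposited table marked the other 5 as unchanged, with values from -0.18 to 0.09.

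**Figure D5:**
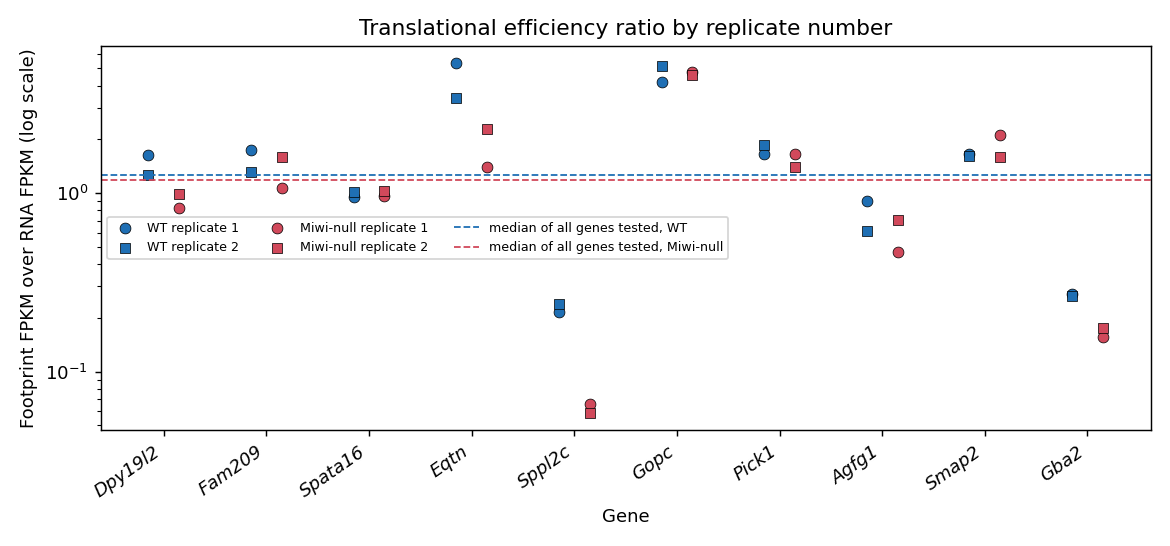
The authors' ratio of footprint FPKM to RNA FPKM (log axis) for each gene, WT in blue and Miwi-null in red, circles for replicate 1 and squares for replicate 2, with dashed lines at the medians of all genes tested (1.26 in WT, 1.18 in null). Sppl2c and Gba2 lie lowest in both genotypes and are lower in null, and Gopc stays between 4.19 and 5.16.

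Where a gene had more coding transcripts, each was read as well. From mean CPM, the TE change over the 2 coding transcripts of Sppl2c was -1.90 to -1.75, over the 2 of Eqtn -1.22 to -1.15, over the 8 of Agfg1 -0.27 to -0.20 and over the 4 of Gopc -0.10 to 0.17. The transcripts share most of their exons and fragments, so they are not separate measurements. The other Gba2 transcript gave -0.26 against -0.58 for the one used.

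Other genes known from acrosome defects were read beside these 10. Of 20 such genes 19 were tested, Ssfa2 having no row under that symbol. In RNA 3 fell and 5 rose, in footprints 5 fell and 2 rose, and in TE 6 fell and 1 rose, with medians of 0.08, -0.10 and -0.10. Over all genes tested 20.8% fell and 16.5% rose in RNA, 13.3% and 12.0% in footprints, and 7.56% and 7.35% in TE, and the RNA count is near that background. Fam71f1, whose protein binds the Golgi GTPase RAB2, had the lowest RNA and footprint changes of the list, and changed by -1.61 ± 0.10 in RNA, -2.36 ± 0.12 in footprints and -0.76 ± 0.15 in TE (adjusted p = 0.0149). Spaca1, an acrosomal membrane protein, had an RNA change of 0.00192 ± 0.30 and its footprints fell by 1.22 ± 0.30 (adjusted p = 0.0198, but 0.0874 without null RPF replicate 2). Ggn was the 1 gene of the list with higher TE, by 1.20 ± 0.17, its RNA having fallen by 1.06 ± 0.12 with footprints at 0.14 ± 0.12. Vps13b, a lipid transfer protein of the Golgi, rose by 1.01 ± 0.09 in RNA and by 0.42 ± 0.09 in footprints, and its TE fell by 0.59 ± 0.12. Vps54, of the tethering complex that returns vesicles to the Golgi, fell by 0.67 ± 0.19 in TE (adjusted p = 0.0494). Without single RNA libraries the TE calls ended for Vps13b (adjusted p = 0.061 to 0.108), Vps54 (0.124 to 0.18) and, WT RNA replicate 1 apart, Fam71f1 (0.0649 to 0.0843), and that of Vps54 also without WT RPF replicate 1 (0.0556) or null RPF replicate 2 (0.128).

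The general machinery of Golgi traffic was read from lists of known genes. Of 10 golgins and Golgi stacking genes 6 rose and 1 fell in RNA and 4 rose in footprints, beside 16.5% of all genes that rose and 20.8% that fell in RNA and 12.0% that rose in footprints. Golga2, the cis-Golgi matrix protein GM130, rose by 1.01 ± 0.11 in RNA and 1.73 ± 0.11 in footprints, and Golgb1 (giantin) by 1.18 ± 0.13 and 1.20 ± 0.13. Gcc2, a golgin of the trans-Golgi, rose by 0.93 ± 0.11 in RNA with footprints at -0.10 ± 0.11, and its TE fell by 1.04 ± 0.15. The COPI and COPII coats carry vesicles between the Golgi and the endoplasmic reticulum. Of 21 genes of these coats 1 rose and 3 fell in RNA, and 5 rose and 3 fell in footprints. The RNA count was below the 37.3% of all genes that changed there, and the footprint count was above the 25.4%. Cope footprints rose by 0.80 ± 0.12 and Sec23a footprints fell by 0.60 ± 0.11. Of 15 clathrin, adaptor and retromer genes 4 rose and 3 fell in RNA, beside 37.3% of all genes that changed. In footprints 2 of the 15 rose (25.4% of all genes changed there), and in TE 13 did not pass (14.9% of all genes changed there). Cltc, the clathrin heavy chain, rose by 0.68 ± 0.09 in RNA and 0.74 ± 0.09 in footprints, whereas RNA of the light chain gene Cltb fell by 0.97 ± 0.18 and its TE rose by 1.17 ± 0.25, a call that ended without any single RNA library (adjusted p = 0.0726 to 0.0888). Of 24 SNARE and Rab genes tested 1 rose and 3 fell in RNA, below the 37.3% of all genes that changed there. The 1 that passed in footprints, below the 25.4% of all genes, was Rab27a, a GTPase of secretory granules. Its footprints changed by 1.29 ± 0.15, with RNA at 0.03 ± 0.18. The list medians were 0.39 in RNA and 0.24 in footprints for golgins, 0.00491 and 0.04 for coats, -0.15 and 0.21 for clathrin and adaptors, and -0.06 and -0.06 for SNAREs and Rabs. Most of these genes are used in many cell types, and the changes of the Leydig, Sertoli and spermatid markers above are from the same libraries. Their part in these counts was not tested.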

How the data were processed

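Total RNA and ribosome footprints of whole testis were measured in 4 groups of 2 libraries, grouped by their titles. Cutadapt 2.5, Bowtie 1.2.2, STAR 2.5.0a and the build GRCm38 are listed, without roles, per the submitters' processing notes, and the fragment counter is not given in the sources used here. Per the file headers, the authors deposited whole fragment counts per transcript, FPKM from those counts, and TE, a ratio of footprint FPKM to RNA FPKM. The authors' deposited gene-level TE fold change and its log2 value come from a merged table, whose counts equalled the sum of both replicates in all 99671 rows. Lengths were multiples of 3 in 84.7% of transcripts with a length and are coding lengths.

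The test was that of edgeR 4.0.16 (R 4.3.3): filterByExpr (minimum count 10, total 15), TMM over 8 libraries, and robust quasi-likelihood tests with 4 residual degrees of freedom and 1 dispersion per gene for both assays. TE change is the interaction of genotype and assay. SE is the change over the root of F, and 95% intervals use the same model. Changes are relative to the bulk of genes. DESeq2 1.42.0 and limma 3.58.1 were alternatives. Scripts were tested on simulated data. Members and lists were chosen with earlier results of these data known. Genes named outside the 10 were Piwil1, paralogs, up to 2 called genes per list, contrast and direction, and the 3 nearest genes by change. A paralog is not reported here.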

Additional observations from a re-analysis of the deposited data

How the results depend on the processing

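Over 21 alternatives (20 for TE), the calls of Sppl2c in RNA, RPF and TE, of Fam209 in RNA and RPF and of Gba2 in RPF held in each one, with Sppl2c RPF between -3.99 and -3.72. No called change of a named gene reversed. The 5984, 4073 and 2394 genes called in RNA, RPF and TE became 9080 in RNA and 1983 in RPF with 1 assay fitted alone. With that fit 6 of the 10 genes rose and 3 fell in RNA, and 0 rose in RPF. With limma-voom 8571 genes were called in RNA, and 4 of the 10 rose and 3 fell there. Both runs called more of the 16051 genes in RNA than the main test. Their counts over all genes were not split by direction, so the rises have no background share beside them. Leaving out 1 library gave 3253 to 7090 genes in RNA, 2938 to 5171 in RPF and 622 to 3635 in TE, the lowest RNA and TE counts without null RNA replicate 1, the lowest RPF count without null RPF replicate 2 and all 3 highest without WT RPF replicate 2, with 0 to 4 of the 10 genes higher in RNA, 1 to 2 higher in RPF and 1 to 4 lower in TE. The dispersion of a gene draws on both assays, so leaving out a footprint library also alters its RNA test. The part of this in the counts, or of any other cause, was not tested. Every RNA library, left out, ended the TE calls of Dpy19l2 and Gba2.

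The main test did not use replicate numbers to pair the samples. The correlation of same-numbered gaps ran from -0.81, between WT and null footprints, to 0.07. Whether the numbers of 1 genotype are crossed was not tested. With a replicate block 3420, 1877 and 212 genes were called in RNA, RPF and TE, and 0, 0 and 1 of the 10 genes were higher in RNA, higher in RPF and lower in TE. With the coding length trend removed as well as the replicate block, these were 3155, 1869 and 191 genes, and again 0, 0 and 1. With the footprint libraries crossed as a replicate block, chosen after seeing the data, 9163, 8287 and 6646 genes were called, and 5 of the 10 were higher in RNA, 4 higher in RPF and 5 lower in TE.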
